A study of Homo sapiens with 96 samples.

Results

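Interferon-stimulated genes were followed after treatment with U0126, an inhibitor of the kinase MEK, in the breast cancer line MDA-MB-231. They are 37 listed genes, chosen by name with earlier results of these data known, and 35 of them had a probe set on the arrays. Those 35 were read among 11874 genes in all, and STAT2 and IRF7 were not analysed here. Of the 35, 10 had several probe sets and were read from the most variable one. The 96 arrays came from 3D culture (series 3D04, 32 arrays) and from 2D culture (series 2D04 and 2D03, 32 arrays each). Every group spent 24 h in little serum. U0126 (10 uM) or the vehicle DMSO was added 30 min ahead of the growth factor EGF (10 ng/ml), whose addition marks 0 h. The arms were U0126 with EGF, DMSO with EGF (DMSO-EGF), EGF without DMSO, and untreated control, and at 0 h each series also had 1 array with DMSO and 1 with U0126 ahead of any EGF. All groups share 1 cell line, and no other inhibitor was used, so loss of MEK activity and anything else U0126 does cannot be told apart. Each arm and time after 0 h had 1 array in each series, at 0.5, 1, 4, 8, 12, 24 and 48 h. The labels do not say whether repeats were separate cultures, so p-values measure the spread between these arrays, which may be technical. In these bulk samples fewer cells expressing a gene and less RNA per cell cannot be told apart either. The values have no absolute level, so the cell line's identity was not checked against markers.

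Interferons are secreted proteins that bind receptors on the cell surface and switch on a shared set of genes through JAK kinases and STAT transcription factors. With IRF9, STAT proteins form a complex that binds the interferon-stimulated response element, and IRF family factors bind related sequences. STAT dimers bind a second element, the gamma-activated site. The induced proteins block virus entry and replication, cut and load peptides for antigen presentation, attach the small modifier ISG15 to other proteins, or amplify the response itself. Many cancer cell lines transcribe a part of this set with no interferon added. The labels name no added interferon here.

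Promoters are shown for 6 members: IFI6, MX1, TAP1, PSMB9 and IRF1, which rose with U0126, and OAS3, which fell. Each window runs from 250 bases before to 50 after the RefSeq start on GRCh38.p14, 5′ to 3′ on the gene's strand. Capitals mark every match to the core of the response element (GAAANNGAAA, or TTTCNNTTTC for the other strand) or to the gamma-activated site (TTCNNNGAA, which reads alike on both strands).
IFI6 (chr1:27672143-27672442, minus strand): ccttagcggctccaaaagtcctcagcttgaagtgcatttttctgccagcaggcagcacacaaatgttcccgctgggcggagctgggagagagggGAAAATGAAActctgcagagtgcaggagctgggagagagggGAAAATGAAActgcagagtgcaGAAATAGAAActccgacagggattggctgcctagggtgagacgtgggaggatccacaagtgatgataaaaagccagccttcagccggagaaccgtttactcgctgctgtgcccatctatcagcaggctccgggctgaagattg
MX1 (chr21:41420308-41420607, plus strand): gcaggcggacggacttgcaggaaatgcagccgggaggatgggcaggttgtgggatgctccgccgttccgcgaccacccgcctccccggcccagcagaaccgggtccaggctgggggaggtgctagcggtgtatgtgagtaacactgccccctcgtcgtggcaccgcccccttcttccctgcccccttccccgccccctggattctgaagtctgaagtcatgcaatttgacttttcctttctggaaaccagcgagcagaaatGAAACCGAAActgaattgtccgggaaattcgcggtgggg
TAP1 (chr6:32853655-32853954, minus strand): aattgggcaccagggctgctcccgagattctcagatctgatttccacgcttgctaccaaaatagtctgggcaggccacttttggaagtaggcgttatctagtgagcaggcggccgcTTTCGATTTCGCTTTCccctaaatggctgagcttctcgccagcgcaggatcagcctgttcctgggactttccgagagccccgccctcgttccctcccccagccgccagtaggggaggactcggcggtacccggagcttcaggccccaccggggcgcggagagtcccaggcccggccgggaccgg
PSMB9 (chr6:32853942-32854241, plus strand): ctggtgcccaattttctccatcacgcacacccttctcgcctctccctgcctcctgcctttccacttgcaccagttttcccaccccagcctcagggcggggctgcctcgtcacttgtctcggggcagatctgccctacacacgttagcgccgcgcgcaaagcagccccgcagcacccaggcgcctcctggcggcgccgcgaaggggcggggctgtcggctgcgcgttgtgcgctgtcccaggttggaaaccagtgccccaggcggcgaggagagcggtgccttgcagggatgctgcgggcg
IRF1 (chr5:132490724-132491023, minus strand): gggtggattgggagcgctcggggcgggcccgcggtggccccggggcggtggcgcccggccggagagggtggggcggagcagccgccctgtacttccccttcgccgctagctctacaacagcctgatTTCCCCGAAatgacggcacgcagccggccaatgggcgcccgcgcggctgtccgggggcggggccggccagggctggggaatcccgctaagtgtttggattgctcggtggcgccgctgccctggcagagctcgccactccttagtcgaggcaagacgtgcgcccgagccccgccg
OAS3 (chr12:112938224-112938523, plus strand): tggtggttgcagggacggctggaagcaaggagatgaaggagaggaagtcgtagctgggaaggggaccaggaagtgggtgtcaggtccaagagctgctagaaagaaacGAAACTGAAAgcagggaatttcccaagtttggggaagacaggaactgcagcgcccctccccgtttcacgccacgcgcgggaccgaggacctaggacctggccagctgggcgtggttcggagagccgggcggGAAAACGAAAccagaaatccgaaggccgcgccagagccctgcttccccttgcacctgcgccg
The response element core lay in 18 of 26 measured members that had a promoter sequence (69.2%), and in 996 of 27305 promoters of the same length (3.65%). The gamma-activated site lay in 7 of those 26 (26.9%) and in 7.88% of all. In BST2, IFI27 and IFITM1 matches to both motifs overlapped. IFI6 has 3 matches to the response element core, and OAS3 has 2. TAP1 and PSMB9 are divergent neighbours whose windows meet at their ends. The TAP1 window holds 2 overlapping matches, and the PSMB9 window holds neither motif. A match describes the letters only.

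The response of the inhibitor's known output was checked first. DUSP6, the ERK phosphatase that ERK signalling itself induces, was lower with U0126 at 24 and 48 h in 3D (log2 -2.40, SE 0.30, adjusted p = 3.7e-06) and in 2D (log2 -2.60, SE 0.21, adjusted p = 1.1e-11). CYP1A1, an enzyme gene known as a target of the aryl hydrocarbon receptor rather than of ERK, was 29.4-fold higher with U0126 in the same window in 3D (log2 4.88, SE 0.22, adjusted p = 1.6e-11) and 21.9-fold higher in 2D (log2 4.45, SE 0.25, adjusted p = 4.9e-16). Its part in the members' values was not tested. Values throughout are on a presumed log2 scale relative to an unknown reference for each probe set, so only differences between arrays carry meaning and no absolute level is given. Differences were tested with limma over all genes, and a gene is called at an adjusted p under 0.05. For U0126, rose and fell mean higher or lower than with DMSO-EGF at the same times, not a change over time.

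Within the early window (0.5 and 1 h) no member was called in either culture. In 3D, 0 of 35 passed and 0 had an unadjusted p under 0.05, where 0.328% of all genes were called. In 2D, 0 of 35 passed and 0 had an unadjusted p under 0.05, where 0.0168% of all genes were called. The difference was positive for 23 of 35 members in 3D and for 17 of 35 in 2D. DUSP6 was called in this window in 3D (log2 -2.89, SE 0.30, adjusted p = 2.8e-05 in limma). In 2D it was not called (log2 -0.76, SE 0.21), so the 2D fit could miss a response there.

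Members rose in the middle window (4, 8 and 12 h) in 3D. There 11 of 35 were higher with U0126 than with DMSO-EGF and 0 were lower, against 15.4% of all genes called, 7.17% higher and 8.19% lower. They were IRF1, IRF9, MX1, MX2, IFIT1, IFIT3, IFI6, UBE2L6, PSMB8, PSMB9 and GBP1. The members' median difference was 0.09 at 4 h, 0.17 at 8 h and 0.28 at 12 h. Leaving out the arrays of 12 h, 8 h or 4 h gave 7, 8 or 12 members.

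IRF1, a transcription factor that activates antigen-processing and antiviral genes, stood apart by 4 h. It stood then at 1.20 with U0126 and 0.40 with DMSO-EGF in 3D, at 1.19 and 0.62 in 2D04, and at 1.50 and 1.02 in 2D03. U0126 was thus above DMSO-EGF in all 3 series at 4 h, by 0.80, 0.57 and 0.48, while the differences at 0.5 and 1 h lay between -0.05 and 0.18. The rise in the 3D middle window was 1.57-fold (log2 0.65, SE 0.11, adjusted p = 0.00038). In 2D the same window gave log2 0.31 (SE 0.16), which did not pass (adjusted p = 0.0029 with the repeat number as a block). GBP1, an interferon-induced GTPase that attacks intracellular pathogens, had its largest difference at 8 or 12 h in each series. Its U0126 minus DMSO-EGF difference in 3D was 0.34 at 4 h, 0.67 at 8 h and 0.42 at 12 h, and -0.07 at 24 h and -0.20 at 48 h. At 4, 8, 12, 24 and 48 h it was 0.06, 0.50, 0.78, 0.08 and -0.16 in 2D04, and 0.34, 0.99, 0.32, 0.69 and 0.07 in 2D03. The 24 h value of 2D03 lay above its 4 and 12 h values. The 8 and 12 h U0126 arrays of 2D03 had the low actin 5′ values described below. Without them the largest GBP1 difference of 2D03 was 0.69 at 24 h, and the 2D middle window includes them. Over the middle window GBP1 rose 1.39-fold in 3D (log2 0.48, SE 0.07, adjusted p = 0.00014), against log2 0.50 in 2D (SE 0.35, adjusted p = 0.49, or 0.0039 with the block).

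In the 2D middle window 1 of 35 members was called, against 7.38% of all genes (5.22% lower), and 6 with the block. Shares of all genes are from the fit without the block, and none is given for the block. SP100, a nuclear body protein that restricts viral gene expression, was lower with U0126 (log2 -0.45, SE 0.12, adjusted p = 0.012). Its difference was -1.31 at 12 h in 2D03 and between -0.48 and 0.02 on the other 5 pairs of arrays, and the other 4 SP100 probe sets lay between -0.19 and 0.09. In 2D03 the U0126 arrays of 8 and 12 h had an actin 5′ minus 3′ probe set difference of -1.26 and -1.08, where the other 94 arrays lay between -0.36 and 0.31. A low 5′ value can mark degraded RNA or a short target. Leaving out the U0126 array of 4 h or of 12 h in 2D03 ended the call too. Without the pair of arrays with low actin values 0 members were called in limma, and SP100 stood at log2 -0.27 (adjusted p = 0.29).

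**Figure D1:**
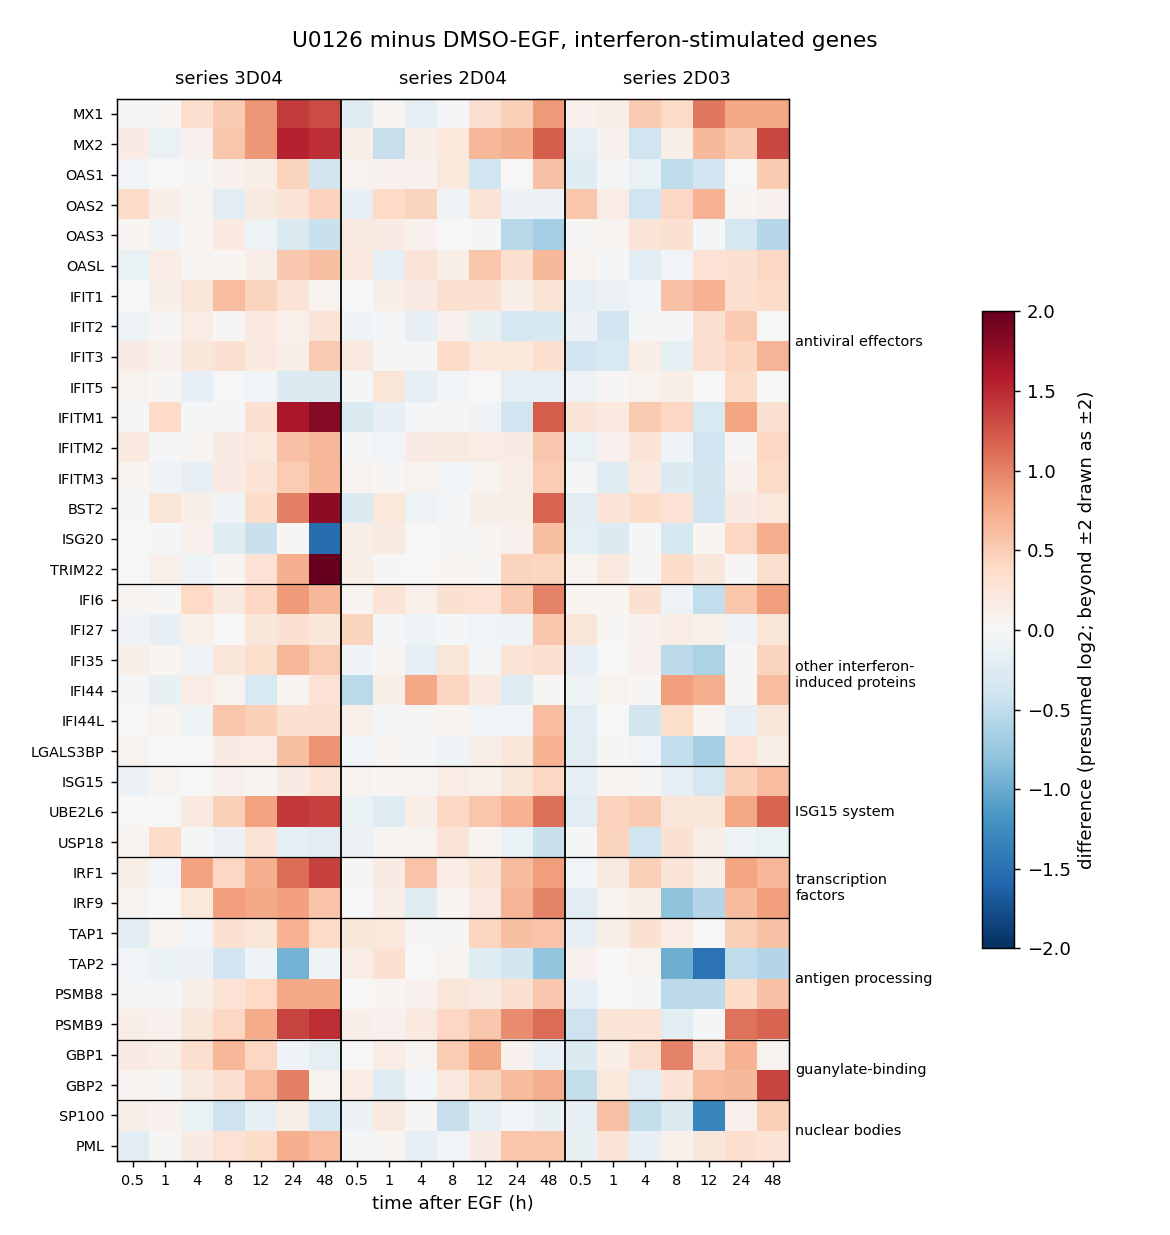
Difference between U0126 and DMSO-EGF (presumed log2, colour) for each of 35 members (rows, grouped by role) at 7 times (h) in series 3D04, 2D04 and 2D03 (columns), 1 array against 1. Most rows are red at 24 and 48 h, with member medians between 0.17 and 0.55, while OAS3, TAP2 and USP18 are blue at both late times in all 3 series.

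At 24 and 48 h many members were higher with U0126 than with DMSO-EGF, which need not be a rise over time. OASL in 3D went from 1.25 at 0.5 h to 0.63 at 48 h with U0126, and from 1.39 to 0.03 with DMSO-EGF. In 3D, 22 of 35 members rose and 3 fell, where 39.1% of all genes were called, 20.9% higher and 18.2% lower. In 2D, 12 rose and 1 fell, where 12.6% were called, 6.55% higher and 6.02% lower. The members' median difference was 0.54 in 3D and 0.33 in 2D, against 0.03 and 0.01 over all genes. With the block, 21 members passed in 2D, adding BST2, IFITM2, ISG15, ISG20, LGALS3BP, OASL and PSMB8 above and TAP2 below DMSO-EGF. The 12.6% of all genes belongs to the fit without the block. No share is given for the block, so its larger counts cannot be set against all genes. In 2D at 48 h alone 8 members rose and 0 fell, against 7.92% of all genes called (4.03% higher and 3.89% lower), and 21 passed with the block. The 8 became 1 without the 48 h DMSO-EGF array of repeat 1 (2D03), and likewise without the 48 h U0126 array of repeat 2 (2D04). At 24 h alone 0 passed in limma (2.21% of all genes called), 8 having an unadjusted p under 0.05 and 6 passing with the block. The 3 series gave 6 pairs of late arrays for each gene. U0126 was above DMSO-EGF on all 6 for 21 members and below it on all 6 for OAS3, TAP2 and USP18, and 11 members were mixed. The share of all genes with such agreement was not computed, so these counts describe the members only.

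Among the antiviral effectors, 10 of 16 rose and 2 fell in 3D, and 5 rose and 1 fell in 2D. MX2, a dynamin-like GTPase that blocks nuclear entry of retroviral genomes, stood at 1.70 (24 h) and 1.85 (48 h) with U0126 in 3D, against 0.16 and 0.39 with DMSO-EGF. In 2D04 it stood at 0.63 and 1.01 with U0126, against -0.08 and -0.18 with DMSO-EGF. In 2D03 it stood at 0.26 and 1.00 with U0126, against -0.26 and -0.33 with DMSO-EGF. Every U0126 array was above every DMSO-EGF array of its culture. The rise was 2.83-fold in 3D (log2 1.50, SE 0.16, adjusted p = 8.3e-07) and 1.92-fold in 2D (log2 0.94, SE 0.13, adjusted p = 1.8e-06). The EGF and control arrays of these times lay between 0.33 and 0.66 in 3D and between -0.31 and 0.17 in 2D, so U0126 was above them too.

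MX1, its paralogue that traps viral nucleocapsids in the cytoplasm, stood at -0.17 and 0.02 with U0126 in 3D, against -1.57 and -1.29 with DMSO-EGF. In 2D its 4 U0126 values ran from -1.04 to -0.31, and its 4 DMSO-EGF values from -1.67 to -1.16. The groups did not overlap in either culture. MX1 rose 2.56-fold in 3D (log2 1.36, SE 0.16, adjusted p = 1.9e-06) and 1.65-fold in 2D (log2 0.72, SE 0.21, adjusted p = 0.016). IFIT3, which binds IFIT1 in the complex that captures foreign RNA, rose 1.25-fold in 3D (log2 0.32, SE 0.09, adjusted p = 0.0083) and 1.33-fold in 2D (log2 0.42, SE 0.12, adjusted p = 0.019). Its 3D rise rested on 48 h, since with 24 h alone it stood at log2 0.12 (adjusted p = 0.45). The other members of that family were not called in 2D, and IFIT5 in 3D depended on the probe set (log2 -0.28, adjusted p = 0.0068, and 0.22 for the other one).

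IFITM1, which blocks virus fusion at the cell surface and had the largest fold of any member in 3D, stood at 0.24 (24 h) and 0.92 (48 h) with U0126 in 3D, against -1.39 and -0.91 with DMSO-EGF. In 2D the groups overlapped, with U0126 values of 0.21 and -0.19 in 2D03 and of -1.18 and 0.42 in 2D04, against -0.58, -0.49, -0.80 and -0.79 with DMSO-EGF. The rise was 3.32-fold in 3D (log2 1.73, SE 0.17, adjusted p = 2.8e-07), and the 2D difference was log2 0.48 (SE 0.30). A second IFITM1 probe set gave log2 1.27 in 3D and 0.62 in 2D (adjusted p = 0.024). IFITM2 and IFITM3, relatives of IFITM1 that act on virus entry through endosomes, rose 1.55-fold and 1.49-fold in 3D, and IFITM3 rose 1.21-fold in 2D (adjusted p = 0.041). These 3 genes were read from probe sets marked as able to bind several transcripts, so signal may be shared between them.

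BST2, or tetherin, which ties budding virions to the cell, stood at -1.19 and -0.51 with U0126 in 3D, against -2.20 and -2.30 with DMSO-EGF. In 2D its U0126 values at 24 and 48 h were -2.14 and -1.29 in 2D04 and -2.56 and -2.19 in 2D03, against a DMSO-EGF range of -2.72 to -2.26. All but the 24 h array of 2D03 lay above that range, the 48 h array of 2D04 by the most. It rose 2.64-fold in 3D (log2 1.40, SE 0.15, adjusted p = 8.0e-07). The 2D difference was log2 0.42 (SE 0.15, adjusted p = 0.064). TRIM22, a ubiquitin ligase that restricts virus transcription, stood at 0.76 and 1.85 with U0126 in 3D, against 0.03 and -0.18 with DMSO-EGF. In 2D its U0126 values ran from 0.09 to 0.42, and its DMSO-EGF values from -0.20 to 0.06, with no overlap. TRIM22 rose 2.60-fold in 3D (log2 1.38, SE 0.19, adjusted p = 1.2e-05) and 1.24-fold in 2D (log2 0.31, SE 0.10, adjusted p = 0.030).

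The oligoadenylate synthetases, which make the messenger that activates RNase L, did not share a direction. OAS3 stood at -0.20 (24 h) and -0.38 (48 h) with U0126 in 3D, against 0.09 and 0.07 with DMSO-EGF. In 2D04 it stood at -0.61 and -0.63 with U0126, against -0.05 and 0.05 with DMSO-EGF. In 2D03 it stood at -0.85 and -1.01 with U0126, against -0.51 and -0.44 with DMSO-EGF. U0126 was below DMSO-EGF on every pair, and the groups did not overlap within a culture. OAS3 fell 1.29-fold in 3D (log2 -0.37, SE 0.09, adjusted p = 0.0019) and 1.45-fold in 2D (log2 -0.54, SE 0.17, adjusted p = 0.031). OASL, a catalytically inactive relative that helps RNA sensing, rose 1.48-fold in 3D (log2 0.57, SE 0.10, adjusted p = 9.3e-05) and stood at log2 0.43 in 2D (SE 0.22, adjusted p = 0.23, or 0.0035 with the block). OAS1 was not called in either culture, and OAS2 passed in 3D alone (log2 0.35, adjusted p = 0.043). OAS2 did not pass with 24 h or 48 h left out.

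ISG20, an RNA exonuclease, went opposite ways in the cultures at 48 h. In 3D at 48 h it stood at -0.49 with U0126, against 1.03 with DMSO-EGF, 1.33 with EGF and 1.28 in the control. At 24 h in 3D it stood at 0.51 with U0126 and 0.49 with DMSO-EGF. In 2D at 48 h it stood at 0.38 with U0126 and -0.22 with DMSO-EGF in 2D04, and at 0.93 and 0.20 in 2D03. The 3D window gave log2 -0.75 (SE 0.30, adjusted p = 0.058), and a second probe set passed (log2 -0.81, SE 0.21, adjusted p = 0.0043).

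Of 6 other interferon-induced proteins, 3 rose in 3D and 1 in 2D, and 0 fell in either. IFI6, a mitochondrial and endoplasmic reticulum protein that blocks cell death and flavivirus replication, stood at 0.35 and 0.41 with U0126 in 3D, against -0.50 and -0.26 with DMSO-EGF. In 2D its U0126 values ran from 0.00 to 0.91 and its DMSO-EGF values from -0.52 to -0.08. The groups did not overlap, and the rise was 1.69-fold in 3D (log2 0.76, SE 0.08, adjusted p = 9.1e-07) and 1.65-fold in 2D (log2 0.73, SE 0.17, adjusted p = 0.0028). LGALS3BP, a secreted galectin ligand, rose 1.68-fold in 3D (log2 0.75, SE 0.09, adjusted p = 2.3e-06) and IFI35, a regulator of innate immune signalling, 1.51-fold (log2 0.59, SE 0.10, adjusted p = 8.7e-05). In 2D these gave log2 0.33 and 0.27. IFI27, IFI44 and IFI44L were not called over the late window in either culture.

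In the ISG15 system 2 of 3 genes rose in 3D and 1 in 2D. UBE2L6, the conjugating enzyme that passes ISG15 to its targets, stood at 0.74 (24 h) and 1.10 (48 h) with U0126 in 3D, against -0.67 and -0.26 with DMSO-EGF. In 2D04 it stood at -0.36 and 0.77 with U0126, against -1.06 and -0.33 with DMSO-EGF. In 2D03 it stood at -0.46 and 0.18 with U0126, against -1.24 and -0.99 with DMSO-EGF. Each U0126 array was above its own DMSO-EGF array, although the 24 h U0126 values of 2D lay below the 48 h DMSO-EGF value of 2D04. UBE2L6 rose 2.61-fold in 3D (log2 1.39, SE 0.11, adjusted p = 1.4e-08) and 1.92-fold in 2D (log2 0.94, SE 0.25, adjusted p = 0.0072). ISG15 itself, the ubiquitin-like modifier, rose 1.16-fold in 3D (log2 0.22, SE 0.08, adjusted p = 0.045), a call lost with the 24 h or 48 h arrays left out. In 2D it stood at log2 0.43 (SE 0.17, adjusted p = 0.10, or 8.1e-05 with the block). USP18, the protease that removes ISG15 and damps the receptor, was not called and stood at log2 -0.21 in 3D and -0.20 in 2D.

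Both measured transcription factors rose in both cultures. IRF1 at 24 and 48 h stood at 1.19 and 1.63 with U0126 in 3D, against 0.08 and 0.26 with DMSO-EGF. In 2D its U0126 values ran from 0.84 to 1.37 and its DMSO-EGF values from 0.00 to 0.58, with no overlap. It rose 2.36-fold in 3D (log2 1.24, SE 0.13, adjusted p = 5.6e-07) and 1.66-fold in 2D (log2 0.73, SE 0.20, adjusted p = 0.010). IRF9, the DNA-binding partner of the STAT proteins, stood at 2.18 and 2.16 with U0126 in 3D, against 1.36 and 1.59 with DMSO-EGF. In 2D its U0126 values ran from 1.10 to 1.72 and its DMSO-EGF values from 0.47 to 0.73, with no overlap. It rose 1.62-fold in 3D (log2 0.69, SE 0.11, adjusted p = 7.0e-05) and 1.72-fold in 2D (log2 0.79, SE 0.23, adjusted p = 0.018).

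**Figure D2:**
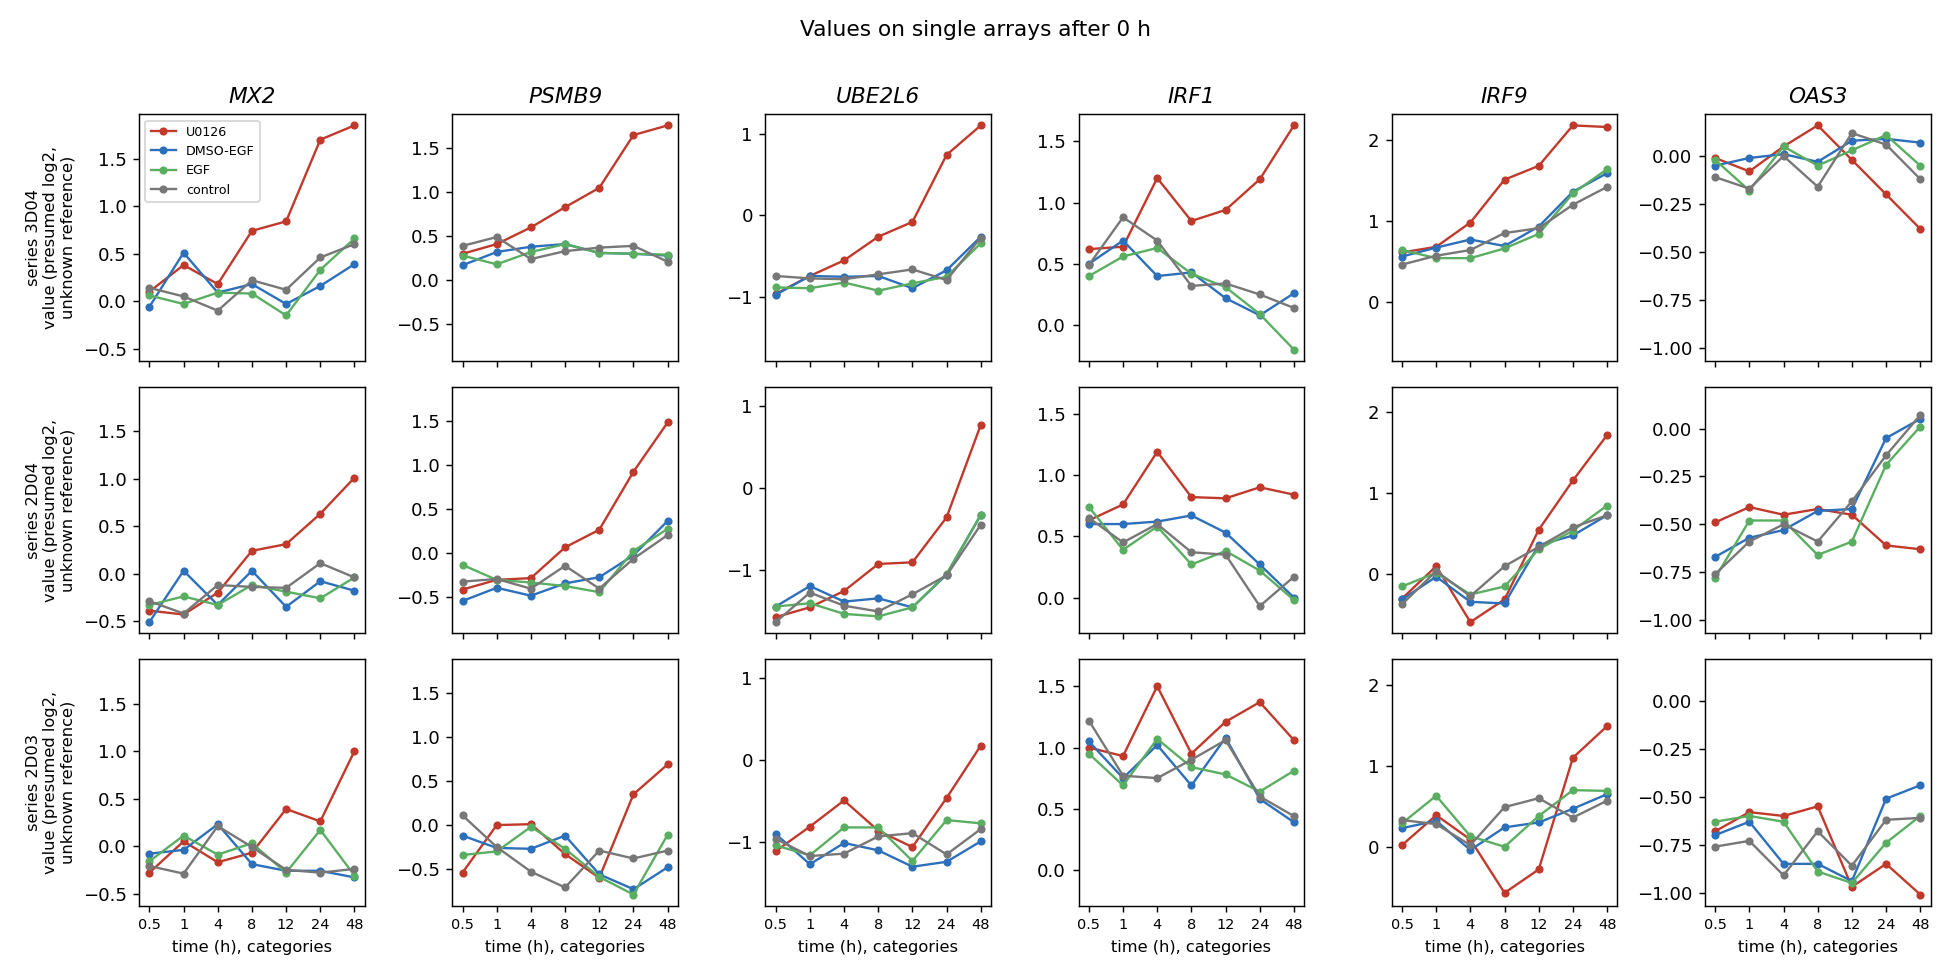
Values (presumed log2, unknown reference) of 6 members on single arrays from 0.5 to 48 h (categories, not to scale) in each series, with 1 line for U0126, DMSO-EGF, EGF and control. At 24 and 48 h U0126 lies above its DMSO-EGF array for MX2, PSMB9, UBE2L6, IRF1 and IRF9 and below it for OAS3, and the U0126 line of IRF1 has its highest value at 4 h in 2D04 (1.19) and in 2D03 (1.50).

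Of 4 antigen processing genes, 3 rose and 1 fell in 3D, and 2 rose in 2D. PSMB9, a catalytic subunit of the immunoproteasome, stood at 1.65 (24 h) and 1.76 (48 h) with U0126 in 3D, against 0.30 and 0.28 with DMSO-EGF. In 2D04 it stood at 0.92 and 1.48 with U0126, against -0.03 and 0.36 with DMSO-EGF. In 2D03 it stood at 0.35 and 0.69 with U0126, against -0.73 and -0.48 with DMSO-EGF. Within a series all U0126 values were higher, and across 2D 1 U0126 value in 2D03 lay 0.01 below the highest DMSO-EGF value in 2D04. PSMB9 rose 2.67-fold in 3D (log2 1.42, SE 0.10, adjusted p = 4.2e-09) and 2.11-fold in 2D (log2 1.08, SE 0.21, adjusted p = 0.00037). Its partner subunit PSMB8 rose 1.70-fold in 3D (log2 0.77, SE 0.08, adjusted p = 5.1e-07) and stood at log2 0.45 in 2D (SE 0.17, adjusted p = 0.091, or 0.0091 with the block).

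TAP1, one chain of the transporter that carries peptides into the endoplasmic reticulum, stood at 0.09 and 0.06 with U0126 in 3D, against -0.60 and -0.32 with DMSO-EGF. In 2D its U0126 values ran from -0.11 to 0.36 and its DMSO-EGF values from -0.59 to -0.21. The groups did not overlap, and TAP1 rose 1.45-fold in 3D (log2 0.54, SE 0.10, adjusted p = 0.00019) and 1.47-fold in 2D (log2 0.56, SE 0.16, adjusted p = 0.017). TAP2, the other chain, stood at 0.40 and 0.83 with U0126 in 3D, against 1.34 and 0.91 with DMSO-EGF. It fell 1.42-fold in 3D (log2 -0.51, SE 0.15, adjusted p = 0.011), and with 48 h alone it stood at log2 -0.08 (adjusted p = 0.64). In 2D it stood at log2 -0.56 (SE 0.31, adjusted p = 0.30, or 0.016 with the block). Of its other probe sets, 1 gave -0.22 in 3D and -0.40 in 2D, and 1 gave 0.07 and 0.03.

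GBP2, a guanylate-binding GTPase like GBP1, rose 1.45-fold in 3D (log2 0.54, SE 0.16, adjusted p = 0.013), resting on 24 h, where U0126 stood at 3.26 and DMSO-EGF at 2.26. At 48 h in 3D U0126 stood at 2.61 and DMSO-EGF at 2.54, and GBP2 without 24 h gave log2 0.07 (adjusted p = 0.76). In 2D U0126 was above DMSO-EGF on all 4 pairs, by 0.63 and 0.72 in 2D04 and by 0.65 and 1.35 in 2D03 (log2 0.84, SE 0.41). PML, the scaffold of nuclear bodies, rose 1.59-fold in 3D (log2 0.67, SE 0.13, adjusted p = 0.00056) and 1.35-fold in 2D (log2 0.43, SE 0.12, adjusted p = 0.014). Its 8 probe sets disagreed, from -0.03 to 0.67 in 3D and from -0.12 to 0.43 in 2D, and the highest was the one read. In 2D it was the sole one called.

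In 2D the calls rest on few arrays. MX2, PSMB9 and IFI6 passed with any 1 array left out, and UBE2L6 failed on leaving out the DMSO-EGF array at 48 h in 2D03 or the U0126 array at 48 h in 2D04. The other 9 each failed without at least 1 of the 8 late arrays. Of 13 members, 5 passed without that DMSO-EGF array and 6 without that U0126 array, and between 9 and 14 passed without any other.

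**Figure D3:**
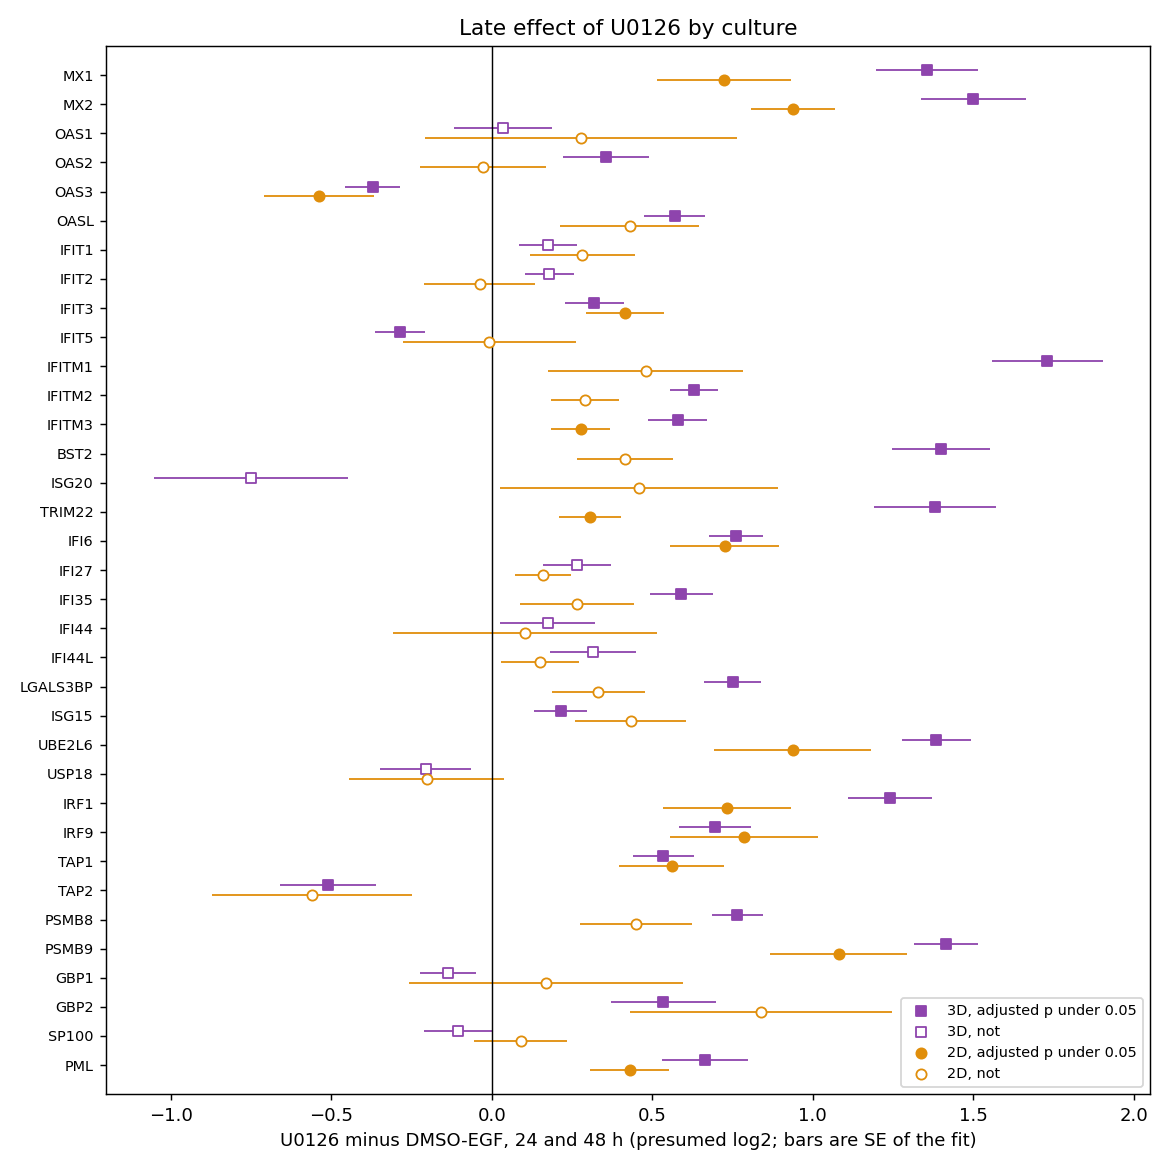
Difference between U0126 and DMSO-EGF at 24 and 48 h (presumed log2, x axis) for 35 members in 3D (squares, above) and 2D (circles, below), with bars of 1 SE from the limma fit and filled symbols for an adjusted p under 0.05. IFITM1 in 3D lies farthest right at 1.73, and OAS3 and TAP2 lie left of 0 in both cultures.

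Whether the response differed between cultures was tested in a model of all arrays after 0 h. In the late window the difference was called for 5 of 35 members, 4 higher in 3D and 1 lower. Of all genes 10.2% were called, 4.33% higher and 5.91% lower, so the share called in either direction lies near that of all genes. The 3D minus 2D difference was log2 1.25 for IFITM1 (SE 0.29, adjusted p = 0.0020), 1.08 for TRIM22 (SE 0.18, adjusted p = 1.5e-05), 0.99 for BST2 (SE 0.24, adjusted p = 0.0033) and 0.51 for IRF1 (SE 0.17, adjusted p = 0.043). For ISG20 it was -1.21 (SE 0.27, adjusted p = 0.0010), and -1.08 with its second probe set. The second IFITM1 probe set gave 0.65 (adjusted p = 0.19), and IRF1 did not pass with array weights, median centring or quantile normalization. MX1 (0.63, SE 0.25, adjusted p = 0.12), MX2 (0.56, SE 0.24, adjusted p = 0.14), UBE2L6 (0.45, SE 0.18, adjusted p = 0.12) and PSMB9 (0.34, SE 0.20, adjusted p = 0.38) did not pass. In the middle window only IRF9 was called (log2 0.81, SE 0.16, adjusted p = 0.0013), against 2.30% of all genes. IRF9 differed by 0.82 at 8 h and 0.75 at 12 h in 3D, by 0.05 and 0.19 in 2D04, and by -0.81 and -0.58 on the 2D03 arrays with the low actin 5′ value. Without those arrays its culture difference was 0.57 (adjusted p = 0.0099). Since 3D is 1 series, culture and series cannot be told apart.

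Between the 2D series the late response was not called as different for any member in limma (0 of 35, 2 with an unadjusted p under 0.05), where 0.269% of all genes were called. Per-member late differences of 2D04 and 2D03 correlated at r = 0.83 over 35 members, 3D04 and 2D04 at 0.77, and 3D04 and 2D03 at 0.58. These series share no array but share the probe sets, so this is a description. In the middle window PSMB8 and TAP2 were called as higher in 2D04 than in 2D03, against 6.91% of all genes. Their differences were log2 0.53 and 0.74, and 0.25 (adjusted p = 0.44) and -0.018 (adjusted p = 0.98) without the 8 and 12 h U0126 arrays of 2D03.

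EGF and the vehicle were tested in 2D alone. For EGF against control limma called 0 of 35 members in each window and 0% of all genes, and an unadjusted p under 0.05 was reached by 1 member in the middle window and 0 in the others. For DMSO-EGF against EGF in 2D it likewise called 0 members and 0% of all genes, with 0 members at an unadjusted p under 0.05 in any window. U0126 against DMSO at 0 h in 2D, after the pre-treatment, gave 0 members and 0% of all genes, with 1 member at an unadjusted p under 0.05.

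The untreated controls were compared next, to ask where the members stood without treatment. In 3D controls 15 of 35 members were higher and 3 lower than in 2D controls. Of all genes 53.5% were called, 26.1% higher and 27.5% lower. The share of members called in either direction lies near that of all genes, while the called members were mostly higher. GBP2 ran from 1.80 to 2.68 on the 9 3D controls (median 1.98), from -0.54 to 2.09 in 2D04 (median -0.14) and from -0.17 to 0.94 in 2D03 (median 0.42). The sole 2D value above 1.80 was the 48 h control of 2D04. GBP2 was 3.43-fold higher in 3D (log2 1.78, SE 0.15, adjusted p = 2.1e-09). GBP1 ran from 1.94 to 2.43 in 3D, from 0.92 to 2.08 in 2D04 and from -0.13 to 0.86 in 2D03, and was 2.44-fold higher in 3D (log2 1.29, SE 0.10, adjusted p = 5.9e-10).

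OAS1, not called for U0126 in either culture, ran from 1.15 to 2.09 in 3D controls, from -0.61 to 2.39 in 2D04 and from -0.56 to 0.42 in 2D03. It was 2.45-fold higher in 3D (log2 1.29, SE 0.16, adjusted p = 2.6e-07). PSMB9 ran from 0.21 to 0.49 in 3D, from -0.70 to 0.20 in 2D04 and from -0.71 to 0.11 in 2D03. It was the one member whose 9 3D controls all lay above all 18 2D controls (log2 0.67, SE 0.08, adjusted p = 1.2e-07). The lowest 3D value, 0.21, lay just above the highest 2D value, 0.20. The share of all genes separated in this way was not computed. With the 24 and 48 h arrays alone, a setting chosen after seeing the data, PSMB9 did not pass (log2 0.43, adjusted p = 0.060). IRF9 (log2 0.61), OAS3 (0.54), USP18 (0.50), UBE2L6 (0.46), MX2 (0.35), SP100 (0.31) and PML (0.25) were higher as well, and IFI44L, IFIT5, OASL and PSMB8 by 0.19 to 0.21. IFIT2 (-0.49), IRF1 (-0.20) and IFI35 (-0.16) were lower. Of these, IFIT5 (-0.094) and IRF1 (0.016) had the other sign against 2D04 alone, and OASL had it against 2D03 alone (-0.0089) and with the 24 and 48 h arrays alone (-0.32). With series as a random block GBP1, GBP2 and PSMB9 alone passed.

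The 2D series differed from each other too, with 8 of 35 members higher and 12 lower in 2D04 than in 2D03 controls. Of all genes 52.6% were called, 25.6% higher and 27% lower, so the share of members called lies near that of all genes. GBP1 was log2 0.90 higher in 2D04 (SE 0.12, adjusted p = 2.1e-06), IFIT5 0.61 and OAS1 0.59. ISG20 was lower (log2 -0.83, SE 0.11, adjusted p = 2.0e-06), as was IFI44 (-0.61). These 2 series share a culture type.

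**Figure D4:**
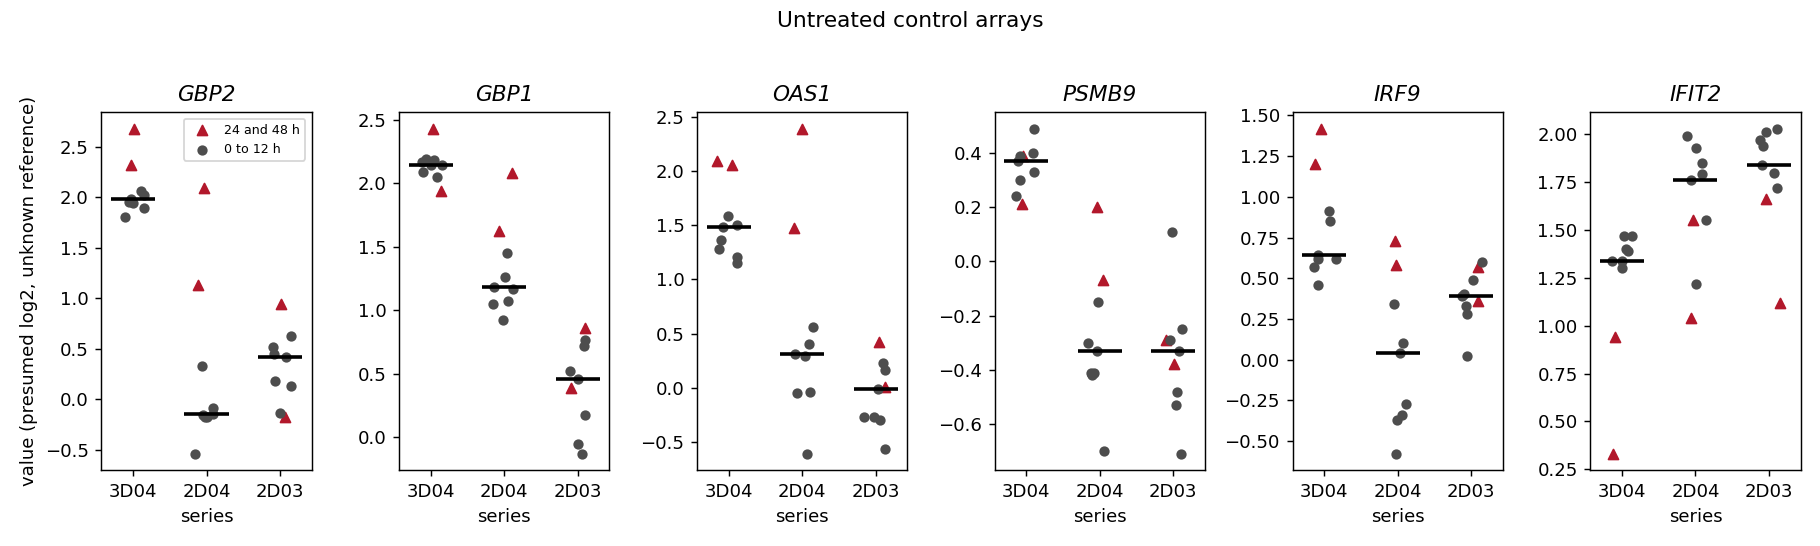
Values (presumed log2, unknown reference) of 6 members on the untreated control arrays of 3D04, 2D04 and 2D03 (9 each), with triangles for 24 and 48 h, circles for 0 to 12 h and a line at the median. GBP2 and GBP1 medians are highest in 3D04 (1.98 for GBP2), and the 24 and 48 h controls of 2D04 rise toward the 3D range for GBP2, GBP1 and OAS1.

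Untreated cells changed with time in culture too. In 3D the controls at 24 and 48 h were compared with those at 0 h, and 5 members were higher and 5 lower, against 11.3% of all genes. Higher were OAS1 (log2 0.75, SE 0.09, adjusted p = 0.0045), IRF9 (0.69), GBP2 (0.59), MX2 (0.55) and LGALS3BP (0.46). Lower were OASL (log2 -0.94, SE 0.18, adjusted p = 0.016), IFIT1 and IFIT2 (both -0.80), IFIT3 (-0.67) and ISG15 (-0.55). IFIT2, an RNA-binding translation inhibitor, was 0.94 and 0.33 at 24 and 48 h, against 1.39 and 1.47 at 0 h. Only 4 arrays enter, and leaving out the 0 h array of repeat 1, the 0 h array of repeat 2, the 24 h array or the 48 h array gave 0, 1, 14 or 4 members.

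In 2D the late against 0 h control comparison called 0 members in limma, against 4.25% of all genes (2.27% higher and 1.99% lower), with 8 members at an unadjusted p under 0.05. With the block 7 passed, namely OAS1, OAS3, IRF9, GBP1 and PML above 0 h and IRF1 and IFIT2 below it. The share of all genes with the block is not given. OAS1 stood at 2.39 and 1.47 on the 48 and 24 h controls of 2D04, against -0.61 and -0.04 at 0 h. IRF1 stood at log2 -0.55 against 0 h in untreated 2D cells (adjusted p = 0.13, or 5.6e-05 with the block), while on each pair of arrays from 4 h on it was higher with U0126 than with DMSO-EGF.

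The other genes of the pathway were taken from lists chosen with earlier results of these data known. Their counts stand beside 20.9% of all genes higher and 18.2% lower late in 3D, and 6.55% higher and 6.02% lower in 2D. Of 13 interferons and receptors, 3 rose (23.1%) and 0 fell late in 3D, a share near the 20.9% of all genes, and 0 passed in 2D. The 3 were receptor chains, IFNGR1 (log2 0.61), IL10RB (0.52) and IFNAR2 (0.29). The interferon gene IFNB1, named outside the rule for its role, stood at log2 -0.005 in 3D (adjusted p = 0.98) and 0.07 in 2D (adjusted p = 0.83). Of 21 signal transduction genes, 9 rose and 1 fell in 3D (39.1% of all genes called), and 4 rose and 1 fell in 2D (12.6%). STAT3, an interleukin-responsive factor, rose in both (log2 0.82 in 3D and 0.34 in 2D), as did STAT4 (1.03 and 0.60). PIAS2 of this list was lower in 2D (log2 -0.505). SOCS2, a feedback inhibitor of cytokine receptors, rose 3.56-fold in 3D.

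Of 17 nucleic acid sensing genes, 7 rose and 2 fell in 3D, where 39.1% of all genes were called, and 3 rose and 0 fell in 2D (17.6%), where 12.6% were. IFIH1, the sensor of long double-stranded RNA, rose 2.33-fold in 3D (log2 1.22, SE 0.14) and 2.10-fold in 2D (log2 1.07, SE 0.19). The adaptor MYD88 and the RNA editing enzyme ADAR rose in both cultures. Of 40 other interferon-stimulated genes, 18 rose and 2 fell in 3D, against 39.1% of all genes called, and 6 rose and 0 fell in 2D (15%), against 12.6% of all genes. SECTM1, a secreted and membrane protein that interferon induces, rose 4.11-fold in 3D (log2 2.04, SE 0.14) and 3.53-fold in 2D (log2 1.82, SE 0.21), more than any member's called rise. HERC6 rose by log2 0.91 in both, and IFI30, a lysosomal reductase of antigen processing, by 0.88 in 3D and 0.61 in 2D. N4BP1 of this list was lower in 3D (log2 -0.52).

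Of 23 class I and class II presentation genes, 12 rose and 3 fell in 3D, where 39.1% of all genes were called, and 7 rose and 0 fell in 2D, where 12.6% were. TAPBP, which bridges the transporter to class I molecules, rose by log2 0.92 in 3D and 0.47 in 2D, and the proteasome activator subunit PSME1 by 0.74 and 0.35. HLA-E rose 2.17-fold in 3D. PSMB10, the remaining immunoproteasome subunit, rose by 0.75 in 2D, and HLA-DMA by 0.71. Medians over the 5 lists ran from 0.05 to 0.25 in 3D and from -0.02 to 0.18 in 2D, below the 0.54 and 0.33 of the members.

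Markers of other cells were measured beside these results. Late with U0126, 39.1% of all genes were called in 3D and 12.6% in 2D. Of 11 leukocyte markers 1 passed in 3D, PTPRC (log2 0.24, adjusted p = 0.017), and 0 in 2D. Of 10 fibroblast markers 0 passed in either. In the controls 3 leukocyte markers were lower in 3D than in 2D, and 6 fibroblast markers were lower and 1 higher. There 53.5% of all genes were called, 27.5% lower and 26.1% higher. The actin 5′ minus 3′ value of the late arrays ran from -0.14 to -0.09 with U0126 and from 0.02 to 0.03 with DMSO-EGF in 3D, and from 0.01 to 0.31 and from 0.04 to 0.20 in 2D. Its part in the results was not tested.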

How the data were processed

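RNA was measured on Affymetrix arrays in 96 samples of MDA-MB-231 cells. The authors deposited 1 table of values, presumed log2: per the submitters' processing notes RMA was used, a method whose output is on the log2 scale. The log base, the centring and the annotation are not given in the sources used here. Array medians lay between -0.06 and 0.03 and values between -5 and 5.7, so each probe set was centred on an unknown reference. Fold changes assume log2, and the number of arrays limits the precision. No sample column was left unused.

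Of 22930 probe sets, 19290 had 1 gene symbol that matched RefSeq and 125 had several and were left out. They cover 11874 genes, and for each the probe set of largest SD over the 96 arrays was taken. Promoter sequences are RefSeq's, build GRCh38.p14, and 26 of the 35 measured members matched.

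Models were fitted by lmFit and eBayes of limma 3.58.1 (R 4.3.3), the variance trend being off. P-values were adjusted across all genes by Benjamini and Hochberg, with 0.05 as threshold. The 2D arrays had a mean for each arm and time (33 residual degrees of freedom), averaged over windows. The 3D arrays had terms for time and for arm in each window, and the repeats there are the times within each window (12 residual degrees of freedom). Controls had terms for time and series. Errors are SEs of these fits. The label 05h was taken as 0.5 h. Repeat numbers pair the 2D samples through the series label: over 465 pairs of groups their deviations correlated at 0.228 to 0.819 (median 0.63), so a blocked fit was run beside each 2D comparison of arms or times. The procedure was tested on simulated data.

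The members and all lists were chosen with earlier results of these data known. All members may be named, and of each other list up to 4 genes with the smallest adjusted p in the late 2D, late 3D and control comparisons. Alternatives were the variance trend, array weights, median centring, quantile normalization, other probe set rules, a filter on SD, the block, each series alone, a joint fit, and arrays or times left out. Leaving out the pair of 2D03 arrays with a low actin value in tests of differences, and splitting the controls by time, were chosen after seeing the data.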

Additional observations from a re-analysis of the deposited data

Results flagged for a closer look

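The U0126 response differed between cultures, or between the 2D series, for 8 values by a test of the difference itself. Of all genes 10.2% were called between cultures in the late window and 2.30% in the middle window. Between the 2D series 6.91% were called in the middle window. The shares of members called in either direction lie near these. In the late window the 3D minus 2D difference was 1.25 for IFITM1, 1.08 for TRIM22, 0.99 for BST2, 0.51 for IRF1 and -1.21 for ISG20 on the log2 scale. In the middle window it was 0.81 for IRF9. The 2D04 minus 2D03 difference in the middle window was 0.53 for PSMB8 and 0.74 for TAP2. The PSMB8 and TAP2 values involve the pair of U0126 arrays of 2D03 with a low actin 5′ value, and the part of RNA quality in them was not tested beyond leaving these arrays out, which gave 0.25 and -0.018. For IRF9 leaving them out gave 0.57. ISG20 in 3D involves 1 array, U0126 at 48 h.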

How the results depend on the processing

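Where an alternative gave gene values, direction held except for OASL, IFIT5 and IRF1 between control cultures and TAP2 between the 2D series. OASL in 3D against 2D controls was -0.0089 against 2D03 alone and -0.32 with 24 and 48 h arrays alone, IFIT5 was -0.094 and IRF1 0.016 against 2D04 alone, and TAP2 was -0.018 without the 8 and 12 h U0126 arrays of repeat 1, the cause not being tested. Of 1285 gene values under alternatives, 1085 stayed past the threshold, 195 lost the call and 5 reversed. Reading every probe set gave counts alone, so it is not among these values. Counts under alternatives stand without a share of all genes, so a larger count cannot be read as a result about the members. Another probe set had the other sign for IFIT5, TAP2 and PML late in 3D, PML late in 2D and SP100 in middle 2D. In the late 2D window 13 members passed, 5 with array weights, 21 with the replicate block, 24 in series 2D04 alone and 25 in a joint fit of both cultures, and at 48 h 8 passed, 5 with array weights, quantile normalization or genes of SD above the median, and 21 with the block. At 24 h 0 passed, 1 with SD above the median and 6 with the block. In the middle 2D window 1 passed, 0 with the mean of probe sets or without the 8 and 12 h U0126 arrays of repeat 1, 6 with the block or either series alone, and 9 in the joint fit. In the middle 3D window 11 passed, 17 with array weights. The middle difference between cultures had 1 member, 2 with array weights, and that between 2D series 2, with 5 under array weights, 1 under quantile normalization or the mean of probe sets, and 0 without the low-actin arrays. Late against 0 h 2D controls gave 0, 1 with array weights or every probe set and 7 with the block. Between 3D and 2D controls 18 passed, 3 with series as a random block and 8 with 24 and 48 h alone. Leaving out 1 array or time gave 5 to 14 members for late 2D, 1 to 9 at 48 h, 0 to 1 at 24 h, 0 to 1 for middle 2D, 7 to 12 for middle 3D, 20 to 22 for late 3D, 16 to 21 between control cultures, 0 to 2 for late 2D controls, 0 to 14 for late 3D controls, and 0 in both early windows. At 48 h the 1 came without the DMSO-EGF array of repeat 1 or the U0126 array of repeat 2. The block changed no call of EGF or vehicle. The 3D fits have 1 array per arm and time, so their errors rest on times of a window being alike.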
